A study of Mus musculus with 16 samples.

Results

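The WNK kinases and the cation-chloride cotransporters that they control were examined in whole mouse kidney as 9 genes taken by symbol: Wnk1, Wnk4, Stk39, Oxsr1, Klhl3, Cul3, Slc12a1, Slc12a2 and Slc12a3. All 9 were found among the 28971 genes of the count table, and all 9 were among the 15615 genes with enough counts to be tested. None was called different between Hes1 cKO and control kidneys. The measured differences were small, and the 95% intervals of the 9 fold changes together spanned 0.749-fold to 1.27-fold.

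The genotype of Hes1 cKO mice was Pax8->rtTA; TRE->Cre; Hes1 f/f, in which doxycycline switches on Cre and the floxed Hes1 is deleted where the Pax8 promoter is active, which is tubule epithelium in the kidney. Controls were littermates labelled as wild type, and the sources used here do not say which transgenes they carried. All mice of both groups had 1 mg/mL doxycycline in drinking water with 5% sucrose for 1 week from 3 weeks of age. The table used has 3 libraries named as mutant and 4 named as wild type. They are called Hes1 cKO 1 to 3 and control 1 to 4 here, and the numbers only name columns. The sample titles list 7 Hes1 cKO and 9 control kidneys with both sexes in each group, but the columns are not tied to a title, a sex or a cage, and the sizes of the 2 groups are swapped in the series text. The columns do not say how many animals they come from. The level of Xist, given further on, differed too widely within each group for all libraries of a group to be one animal, and p-values measure the spread between these libraries.

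In this pathway, WNK kinases phosphorylate and activate the kinases SPAK (Stk39) and OSR1 (Oxsr1), and these phosphorylate cotransporters of the SLC12 family, which activates the sodium-coupled ones. A ubiquitin ligase built on cullin 3 (Cul3), with Klhl3 as the adaptor that holds the substrate, marks WNK kinases for degradation. Salt is taken up by NKCC2 (Slc12a1) in the thick ascending limb and by the thiazide-sensitive NCC (Slc12a3) in the distal convoluted tubule, while NKCC1 (Slc12a2) lies on the basolateral side of several cell types. Mutations of WNK1, WNK4, KLHL3 and CUL3 cause familial hyperkalaemic hypertension in humans. Much of the control acts on phosphorylation and protein stability, which RNA counts do not measure.

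Total counts were 16973931 to 20420422 per library. Hes1, the targeted gene, was at 17.2 to 19.8 CPM (CPM is a gene's count scaled to a fixed library total, with TMM scaling) in the 3 Hes1 cKO libraries and at 42.8 to 67.6 CPM in the 4 controls, with no overlap. Its log2 fold change was -1.61 (95% interval -1.97 to -1.26, edgeR quasi-likelihood test with Benjamini-Hochberg adjustment over all tested genes, adjusted p 0.00357). Which part of the gene is floxed is not said in the sources used here. Over all tested genes, 0.339% were called at an adjusted p under 0.05 (53 genes; 0.32% higher and 0.0192% lower in Hes1 cKO), and 5.95% had an unadjusted p under 0.05 (3.34% higher and 2.61% lower). Among the 9 genes of the pathway, 0 were called in either direction and 0 had an unadjusted p under 0.05. DESeq2's Wald test and limma-voom gave 0 on both counts as well. The median log2 fold change was -0.075 over the 9 genes and -0.0064 over all tested genes, with 5 of the 9 lower in Hes1 cKO, where 51.6% of all tested genes were lower.

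The 3 cotransporters are described first. Slc12a1 (ENSMUSG00000027202, GRCm38, chromosome 2, 125152505 to 125230002, plus strand) was at 1562, 1748 and 1621 CPM in Hes1 cKO 1, 2 and 3. It was at 1631, 1600, 2098 and 1882 CPM in control 1, 2, 3 and 4. The highest libraries were control 3 and control 4, and the remaining 2 controls lay inside the Hes1 cKO range. The means were 1644 ± 95.2 CPM (SD, n = 3) and 1803 ± 234 CPM (SD, n = 4), and the log2 fold change was -0.13 (SE 0.12, 95% interval -0.40 to 0.13, edgeR adjusted p 0.962).

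Slc12a3 (ENSMUSG00000031766, chromosome 8, 94329201 to 94366214, plus strand) was at 679.7, 629 and 642 CPM in Hes1 cKO 1, 2 and 3, and at 673, 635, 849.7 and 759 CPM in control 1, 2, 3 and 4. As for Slc12a1, control 3 and control 4 were the highest libraries and the ranges overlapped. The means were 650.0 ± 26.5 CPM (SD, n = 3) and 729 ± 95.5 CPM (SD, n = 4), and the log2 fold change was -0.17 (SE 0.11, 95% interval -0.42 to 0.085, edgeR adjusted p 0.942). Without control 3 its log2 fold change was -0.084, and without control 2 it was -0.23.

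Slc12a2 (ENSMUSG00000024597, chromosome 18, 57878678 to 57946821, plus strand) was at 64.3, 80.8 and 75.3 CPM in Hes1 cKO 1, 2 and 3, and at 68.4, 72.8, 64.9 and 70.4 CPM in control 1, 2, 3 and 4. The order of the libraries differed from that of the other 2 cotransporters: control 3, highest for Slc12a1 and Slc12a3, was the lowest control here. The log2 fold change was 0.088 (SE 0.092, 95% interval -0.12 to 0.30, edgeR adjusted p 0.974).

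Of the kinases, Wnk1 (ENSMUSG00000045962, chromosome 6, 119923969 to 120038672, minus strand) was at 458, 449 and 439 CPM in Hes1 cKO 1, 2 and 3. It was at 471, 474, 576 and 479 CPM in control 1, 2, 3 and 4. It was the 1 gene of the 9 whose groups did not overlap, with all 3 Hes1 cKO libraries below all 4 controls, where 3.29% of all tested genes had such an order, 3.71% had the opposite one and 7.01% had either. The gap between the groups was narrow, and control 3 stood above the other controls. The means were 449 ± 9.63 CPM (SD, n = 3) and 500.1 ± 50.8 CPM (SD, n = 4), and the log2 fold change was -0.16 (SE 0.095, 95% interval -0.37 to 0.058, edgeR adjusted p 0.938). The exact two-sided permutation test gave p = 0.0857, where the smallest p that 3 against 4 libraries allow is 0.0286. Without control 3 the log2 fold change was -0.082. Kidney makes a long Wnk1 transcript with the whole kinase domain and a kidney-specific short one that lacks most of it and is found mainly in the distal convoluted tubule, and counts per gene add them together.

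Wnk4 (ENSMUSG00000035112, chromosome 11, 101260567 to 101277409, plus strand), the WNK kinase best known for control of NCC, was at 232, 241 and 248 CPM in Hes1 cKO 1, 2 and 3, and at 208, 194, 281 and 237 CPM in control 1, 2, 3 and 4. The 3 Hes1 cKO libraries lay inside the wide control range. The log2 fold change of Wnk4 was 0.063 (SE 0.12, 95% interval -0.22 to 0.34, edgeR adjusted p 0.988). The antisense gene Gm11615 overlaps 306 bp of its exons (7.38% of them), and it had 5 to 28 counts per library against 3624 to 5125 for Wnk4. Whether counting used the strand is not said in the sources used here.

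Stk39 (ENSMUSG00000027030, chromosome 2, 68210445 to 68472268, minus strand), which encodes SPAK, was at 69.6, 71.5 and 76.4 CPM in Hes1 cKO 1, 2 and 3, and at 55.5, 65.9, 84.6 and 75.7 CPM in control 1, 2, 3 and 4. The lowest and the highest library were both controls, 1.53-fold apart, the widest span of any of the 9 genes. For Stk39 the log2 fold change was 0.042 (SE 0.13, 95% interval -0.26 to 0.34, edgeR adjusted p 0.992).

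Oxsr1 (ENSMUSG00000036737, chromosome 9, 119238432 to 119322427, minus strand), which encodes OSR1, had the narrowest span of the 9, with its highest library 1.09-fold above its lowest. It was at 73.5, 75.6 and 69.7 CPM in Hes1 cKO 1, 2 and 3, and at 69.1, 74.3, 71.3 and 71.7 CPM in control 1, 2, 3 and 4. The groups overlapped throughout. Its log2 fold change of 0.026 had the tightest interval of the 9 (SE 0.071, 95% interval -0.13 to 0.19, edgeR adjusted p 0.992).

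The ligase was measured through its adaptor and its scaffold. Klhl3 (ENSMUSG00000014164, chromosome 13, 58000228 to 58113592, minus strand) was at 64.7, 66.7 and 83.9 CPM in Hes1 cKO 1, 2 and 3, and at 66.8, 68.7, 91.1 and 75.8 CPM in control 1, 2, 3 and 4. In each group the libraries split into lower and higher ones, and the groups overlapped. For Klhl3 the log2 fold change was -0.075 (SE 0.13, 95% interval -0.37 to 0.22, edgeR adjusted p 0.987). Cul3 (ENSMUSG00000004364, chromosome 1, 80264923 to 80340480, minus strand), a scaffold used in all cell types with many adaptors besides Klhl3, was at 110.3, 138.7 and 138.7 CPM in Hes1 cKO 1, 2 and 3. It was at 122, 162, 133 and 137 CPM in control 1, 2, 3 and 4. Hes1 cKO 1 and control 1 were the lowest of their groups, and the log2 fold change was -0.098 (SE 0.12, 95% interval -0.37 to 0.18, edgeR adjusted p 0.974).

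**Figure D1:**
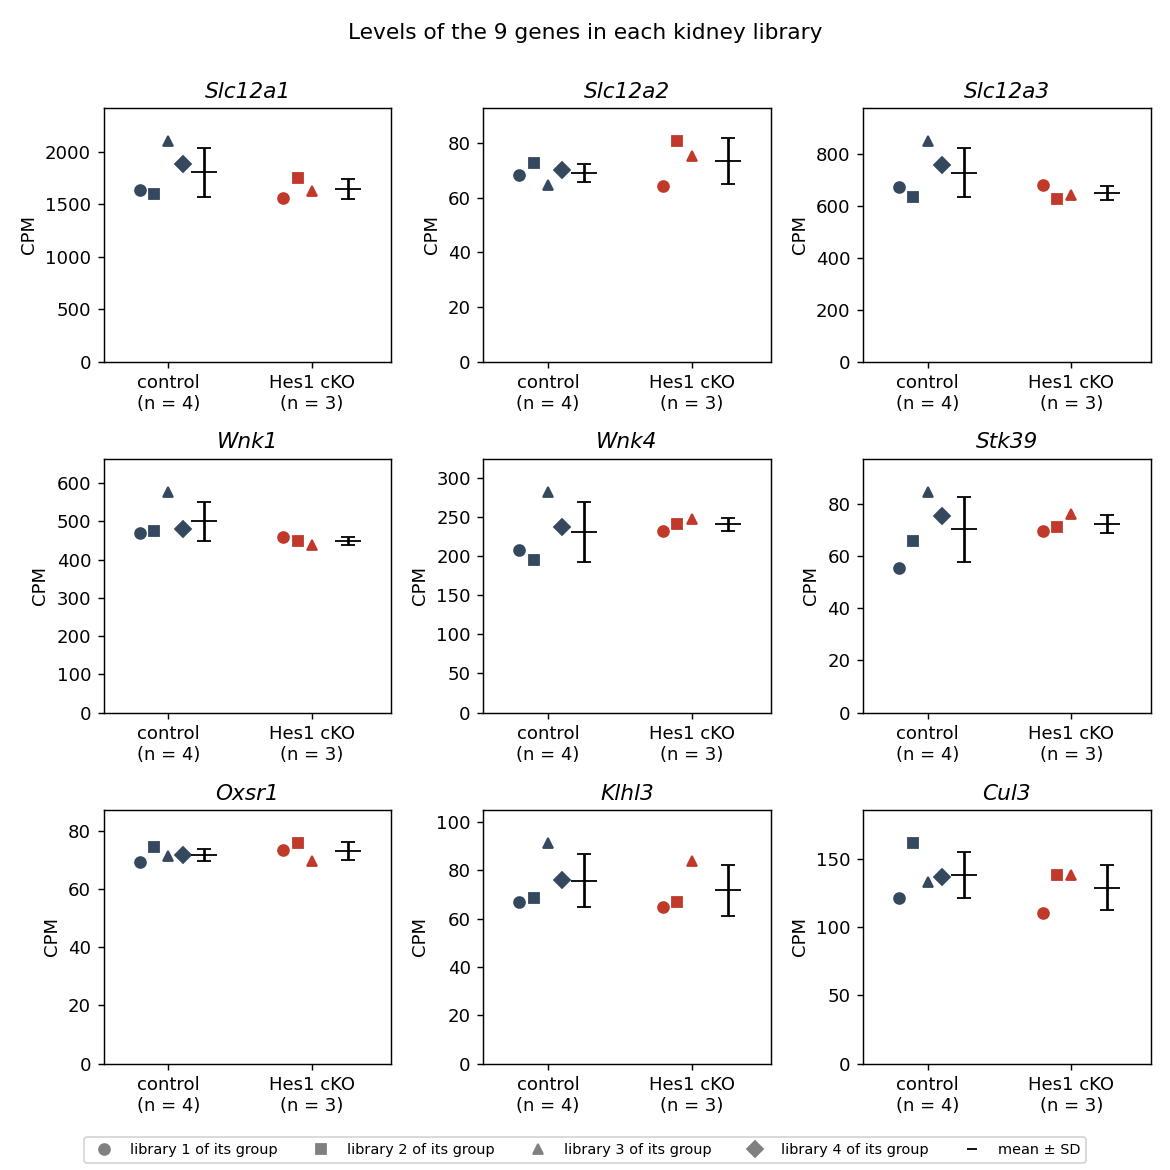
Level of each of the 9 genes in CPM (y axis, from 0) in the 4 control and 3 Hes1 cKO libraries (points, 1 shape per library number within a group), with mean ± SD beside them. The groups overlap for every gene but Wnk1, and control 3 (triangle) is the highest control for 6 of the 9.

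Levels of different genes were compared per kilobase of exon. In control, Slc12a1 was at 313 ± 40.6 CPM per kb (SD, n = 4), far above Slc12a3 at 65.6 ± 8.59 and Wnk4 at 55.5 ± 9.26 CPM per kb, whose libraries overlapped each other. Cul3 (28.4 ± 3.47 CPM per kb) and Wnk1 (21.9 ± 2.23 CPM per kb) also overlapped, as did Stk39 (14.2 ± 2.53 CPM per kb) and Oxsr1 (13.4 ± 0.397 CPM per kb). Klhl3 at 10.3 ± 1.51 CPM per kb and Slc12a2 at 6.33 ± 0.305 CPM per kb were the lowest, and they did not overlap over the 7 libraries. The order depends on the length used, because joining all annotated exons gives Slc12a3 a length of 11119 bp and its longest single transcript 4310 bp. With the longest transcript, Slc12a3 was at 169 ± 22.2 CPM per kb and stood apart from Wnk4, Wnk1 passed Cul3, and Slc12a2 and Klhl3 overlapped.

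The libraries differed from each other in a pattern that 6 of the 9 genes shared. Slc12a1, Slc12a3, Wnk1, Wnk4, Stk39 and Klhl3 were all highest in control 3, both among the controls and among all 7 libraries, while 24.1% of all tested genes were highest in control 3 among the controls. The share of all tested genes that were highest in control 3 among the 7 libraries was not counted. Slc12a2, Oxsr1 and Cul3 did not have this order: Oxsr1 and Slc12a2 were highest in Hes1 cKO 2, and Cul3 in control 2. Likeness was measured as the root mean square difference of log2(CPM + 1), after each gene's mean over the 7 libraries was taken off, among 9750 genes with a mean of at least 10 CPM. A smaller value is a closer pattern, and the value describes these 7 libraries only. The member closest to Slc12a3 was Wnk1 at 0.069, followed by Slc12a1 at 0.077 and Wnk4 at 0.13. Slc12a2 lay at 0.23 from Slc12a3 and at 0.19 from Slc12a1.

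Over all those genes, the 3 with a pattern closest to Slc12a3 were Mfsd4 (0.048), Arsa (0.053), which encodes a lysosomal sulfatase, and Sec11c (0.054), which encodes a signal peptidase subunit. Wnk1 came 15th by rank and Slc12a1 came 35th. For Slc12a1 the 3 closest were Alkbh6 (0.041), Ier5l (0.054) and Trib1 (0.057), with Slc12a3 at rank 27 and Wnk1 at rank 35. For Slc12a2 they were Xrn2 (0.025), which encodes a 5′ to 3′ exoribonuclease, Cadm1 (0.030), a cell adhesion gene, and C2cd2 (0.030). The closest of the other 8 pathway genes to Slc12a2 was Oxsr1, at rank 949.

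**Figure D2:**
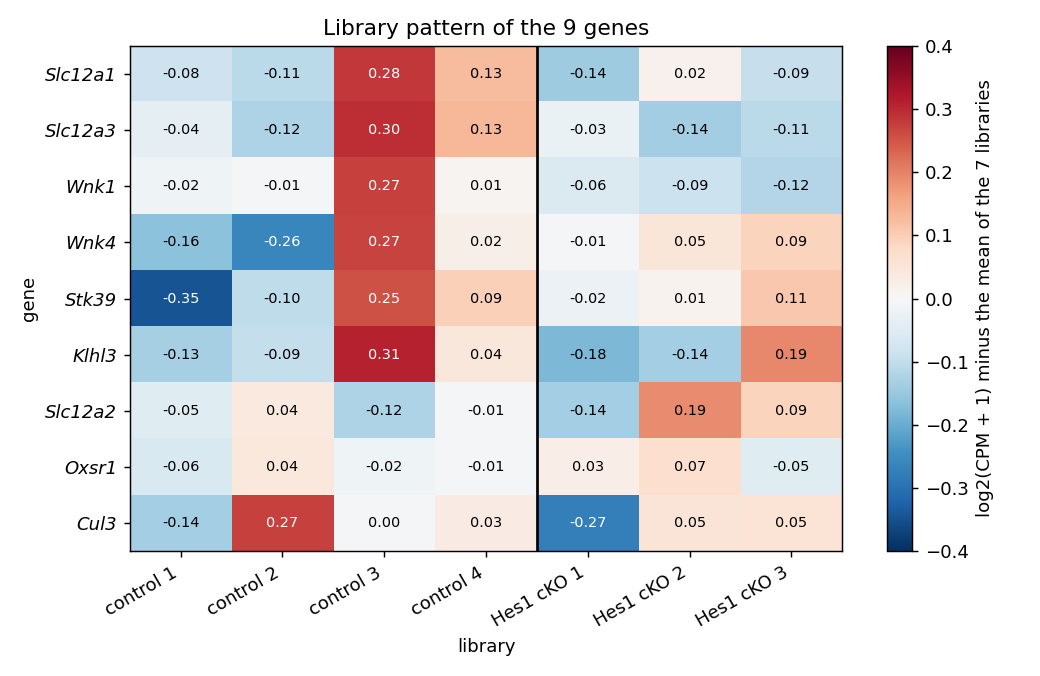
Each cell gives log2(CPM + 1) of a gene (row) in a library (column) minus the gene's mean over the 7 libraries; the black line separates control from Hes1 cKO. The upper 6 genes share their highest value in control 3 (0.25 to 0.31), and Slc12a2, Oxsr1 and Cul3 do not.

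The level of Xist, a transcript of the inactive X chromosome, was 342 CPM in Hes1 cKO 3, 333 CPM in control 3 and 367 CPM in control 4, and at most 0.371 CPM in the other 4 libraries. For Wnk4, Stk39 and Klhl3 the libraries with high Xist were above the others within each group, while 9.55% of all tested genes had that order. The other 6 genes did not have it in both groups. With the level of Xist as a covariate, the log2 fold change was 0.12 for Wnk4, 0.10 for Stk39 and -0.022 for Klhl3, none of them called (edgeR adjusted p 0.893, 0.908 and 0.983).

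Promoter sequences are shown for Slc12a1, Slc12a3 and Wnk1, the 3 genes whose library patterns lay closest together (0.069 to 0.082 between pairs). Each is the stretch before the RefSeq start (GRCm38.p6), 5′ to 3′ on the gene's strand, cut where the GENCODE gene begins. The RefSeq table held a promoter for 8 of the 9 genes, not for Slc12a2. Hes1 is a repressor known to bind N-box sequences (CACNAG) and class C sites (CACGCG), so both were searched on both strands in the 250 bases before the start, and matches are in capitals. The Slc12a1 stretch is chr2:125152350-125152504, the Slc12a3 stretch chr8:94328958-94329200 and the Wnk1 stretch chr6:120038673-120038905.
Slc12a1: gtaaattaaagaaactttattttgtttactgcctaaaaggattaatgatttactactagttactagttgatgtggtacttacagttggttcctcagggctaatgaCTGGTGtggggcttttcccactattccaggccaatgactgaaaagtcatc
Slc12a3: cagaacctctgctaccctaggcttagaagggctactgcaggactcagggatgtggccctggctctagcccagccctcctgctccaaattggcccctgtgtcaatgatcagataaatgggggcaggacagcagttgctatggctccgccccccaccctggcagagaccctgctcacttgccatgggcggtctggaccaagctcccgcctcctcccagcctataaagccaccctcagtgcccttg
Wnk1: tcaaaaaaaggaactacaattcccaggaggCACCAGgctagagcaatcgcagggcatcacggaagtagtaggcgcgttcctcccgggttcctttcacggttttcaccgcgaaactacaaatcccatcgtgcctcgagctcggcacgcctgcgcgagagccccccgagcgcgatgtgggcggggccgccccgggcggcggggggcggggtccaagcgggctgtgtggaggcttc

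Slc12a1 and Wnk1 had 1 CACNAG match each, 145 and 220 bases before the start, and Slc12a3 had none of either motif. Of the 8 promoters, 6 held CACNAG, where 36.7% of the 32851 promoters of the table did, and 1 (Stk39) held CACGCG, where 7.62% did. Stk39 is also among those with CACNAG. Its window (chr2:68471982-68472231) lies wholly inside the GENCODE gene, so its matches are before the RefSeq start but not before that gene. No match overlapped a match to the other motif. These matches describe letters in a window, and binding was not measured.

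Ratios of 2 genes within a library hardly depend on how libraries are scaled, and 6 were tested. The ratio of Slc12a3 to Slc12a1 was the steadiest in control, at -1.27, -1.33, -1.30 and -1.31 on the log2 scale of CPM + 1 in control 1, 2, 3 and 4. It ranged wider in Hes1 cKO, at -1.20, -1.47 and -1.33 in Hes1 cKO 1, 2 and 3. The difference of the means was -0.032, with an exact two-sided permutation p of 0.629 (0.943 adjusted over the 6 ratios).

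The log2 ratio of Wnk4 to Wnk1 was -0.98, -0.89 and -0.82 in Hes1 cKO 1, 2 and 3. It was -1.18, -1.28, -1.03 and -1.01 in control 1, 2, 3 and 4. All 3 Hes1 cKO libraries lay above all 4 controls, by a margin narrower than the SD of either group. The difference was 0.23, with an exact two-sided permutation p of 0.0571 and an adjusted p of 0.343. For the ratios of Slc12a2 to Slc12a1 (difference 0.21), Slc12a2 to Slc12a3 (0.24), Stk39 to Oxsr1 (0.032) and Klhl3 to Cul3 (0.025) the groups overlapped, and their adjusted exact permutation p-values were 0.571, 0.571, 0.943 and 0.943. Without control 3 the differences of the 2 ratios of Slc12a2 were 0.10 (to Slc12a1) and 0.13 (to Slc12a3). The difference of Slc12a2 to Slc12a3 was 0.36 without Hes1 cKO 1 and 0.14 without Hes1 cKO 2.

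**Figure D3:**
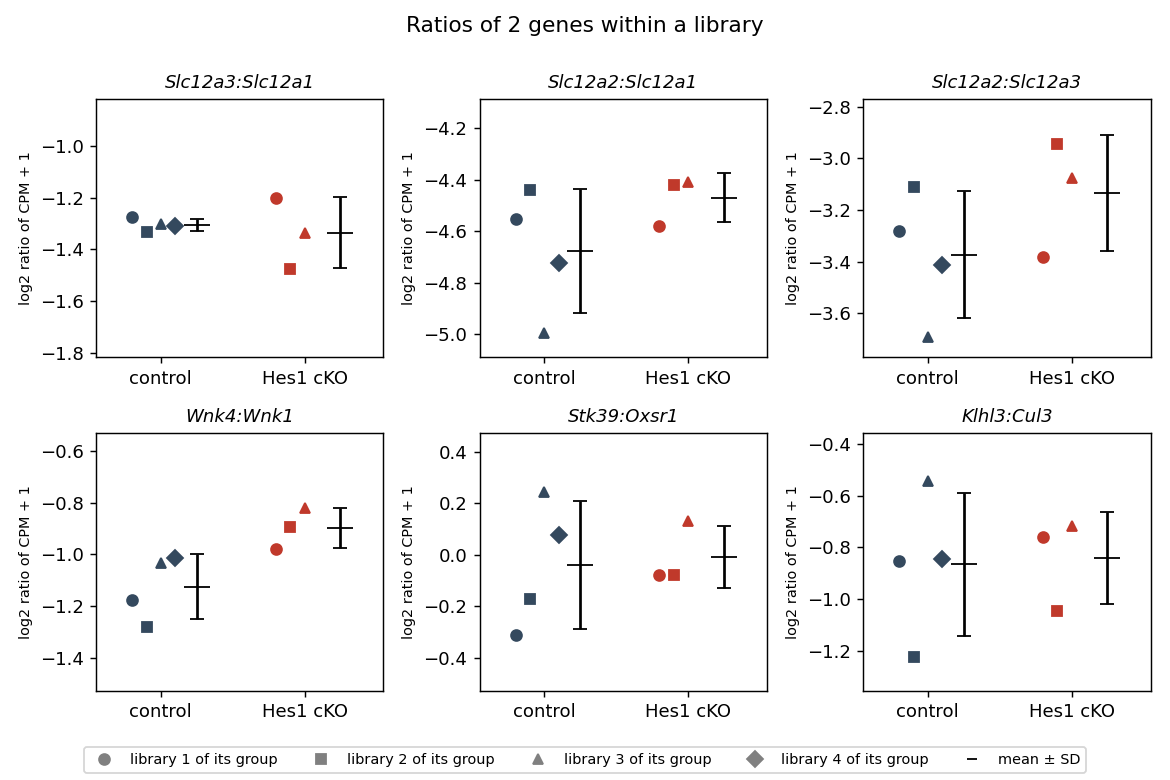
Log2 ratio of CPM + 1 of 2 genes within each library (y axis, the same span of 1 log2 unit in every panel, not from 0), with mean ± SD. The groups are apart for Wnk4 to Wnk1 (differing by 0.23) and overlap for the other 5 ratios.

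The wider pathway was read from a list of 20 regulators and partners, of which 19 were tested, and from the 6 other Slc12 genes, of which 5 were tested. By edgeR, 0 of the 19 and 0 of the 5 were called. Over both lists together, limma-voom called 0 and DESeq2's Wald test called 1, Kcnj10, where it called 0.833% of the tested genes. At an unadjusted p under 0.05 there were 3 of the 19 (1 higher, 2 lower) and 1 of the 5 (higher), beside 5.95% of all tested genes. The groups did not overlap for 4 of the 19, beside 7.01% of all tested genes, with Kcnj10 and Ppp1r1a lower in Hes1 cKO and Nedd4l and Cab39 (a scaffold that binds SPAK and OSR1) higher. Cab39 and Kcnj16 were named after their values were seen. The median log2 fold changes were 0.023 for the 19 and 0.064 for the 5.

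Kcnj10 encodes Kir4.1, the basolateral potassium channel through which plasma potassium acts on WNK kinases in the distal convoluted tubule. It was at 110.0, 104 and 112 CPM in Hes1 cKO 1, 2 and 3, against 132, 132, 157 and 141 CPM in control 1, 2, 3 and 4, with no overlap. The log2 fold change of Kcnj10 was -0.37 (SE 0.088, 95% interval -0.57 to -0.17), with an unadjusted p of 0.00219 and an adjusted p of 0.287 by edgeR and 0.0301 by DESeq2. Its channel partner Kcnj16, second to Ppp1r1a per kb in control (165 CPM per kb) and above it in Hes1 cKO (157 against 128 CPM per kb), had a log2 fold change of -0.072 and overlapping groups.

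Ppp1r1a encodes inhibitor 1 of protein phosphatase 1, which is enriched in the thick ascending limb and distal convoluted tubule, and was the most abundant gene of the list in control at 186 ± 40.6 CPM per kb in control (SD, n = 4). It was at 181, 151 and 171 CPM in Hes1 cKO 1, 2 and 3, against 236, 189, 316 and 231 CPM in control 1, 2, 3 and 4. The groups did not overlap, and control 3 was again the highest. Its log2 fold change was -0.54 (SE 0.16, edgeR unadjusted p 0.00805, adjusted p 0.550 and 0.0846 by DESeq2).

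Nedd4l, a ubiquitin ligase that acts on the sodium channel ENaC and on NCC, was at 130, 143 and 134 CPM in Hes1 cKO 1, 2 and 3, against 129, 110, 114 and 111 CPM in control 1, 2, 3 and 4. Its groups did not overlap, Hes1 cKO 1 lying just above control 1, and the log2 fold change was 0.23 (SE 0.086, edgeR unadjusted p 0.0262, adjusted p 0.734). Slc12a4, the potassium-chloride cotransporter KCC1, had overlapping groups and a log2 fold change of 0.25 (SE 0.095, edgeR unadjusted p 0.0280, adjusted p 0.738). Slc12a7, which encodes KCC4 and was the most abundant of the other Slc12 genes at 18.1 ± 2.16 CPM per kb in control (SD, n = 4), had a log2 fold change of 0.064. Wnk3 and Slc12a8 had too few counts to be tested, with 3 to 12 and 2 to 15 counts per library.

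**Figure D4:**
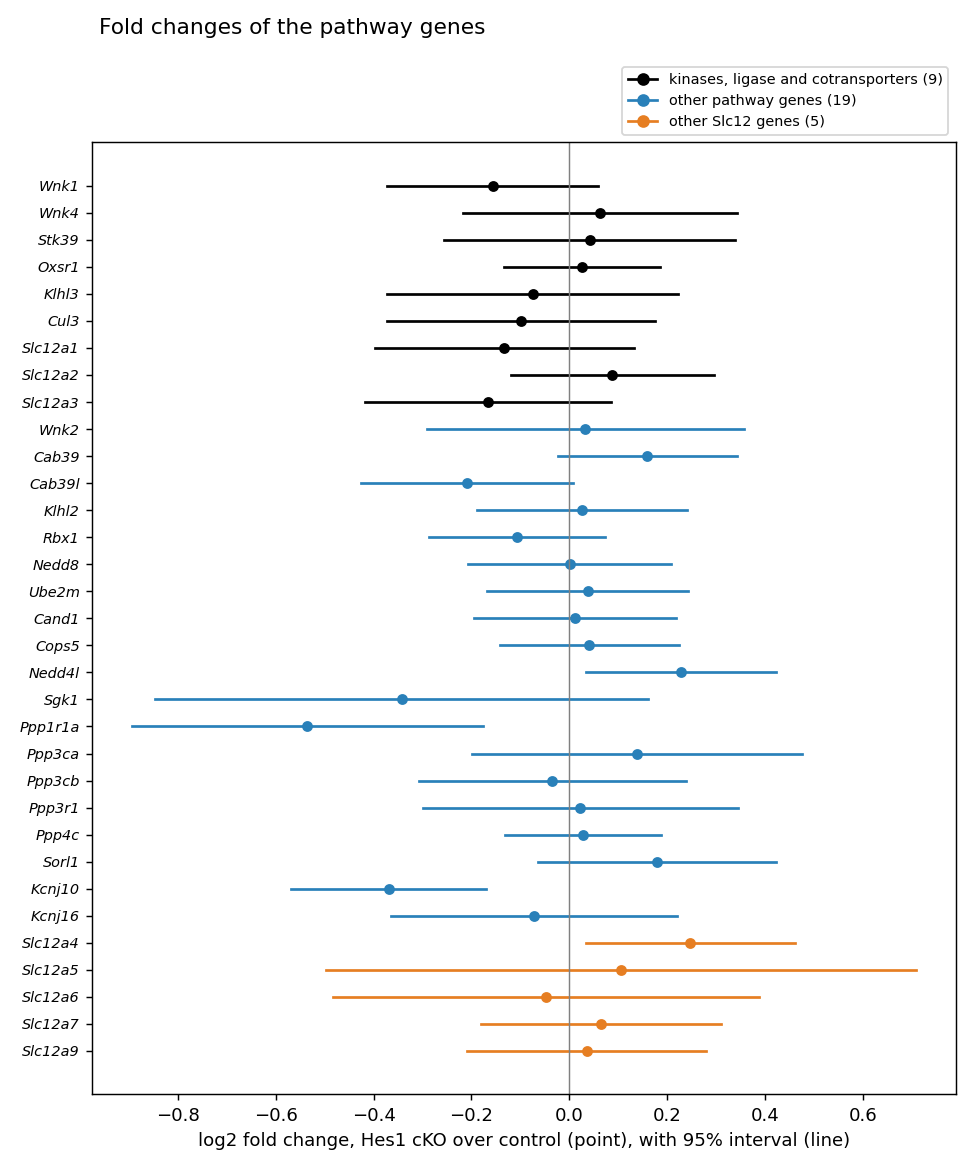
Log2 fold change of Hes1 cKO over control (points) with its 95% interval from the edgeR fit (lines) for the 9 genes of the group, 19 other regulators and 5 other Slc12 genes. The intervals of all 9 include 0, and those of Nedd4l, Ppp1r1a, Kcnj10 and Slc12a4 do not; the intervals are not adjusted for the number of genes.

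In whole-kidney RNA, fewer cells of a type and less RNA per cell cannot be told apart, so markers of the cells that express these genes were read beside them. Of 10 thick ascending limb genes, 6 were lower and 0 called (median log2 fold change -0.14), and their summed level was 5826 to 6860 CPM in Hes1 cKO and 5687 to 7143 CPM in control, with control 3 the highest. Kcnj1 (log2 fold change -0.30), Cldn10 (-0.28) and Cldn16 (-0.39) had unadjusted p-values under 0.05 by edgeR (0.0473, 0.0166 and 0.00716). The 4 higher ones were Umod (log2 fold change 0.11), Egf (0.077), Tmem72 (0.088) and Casr (0.010), named after their values were seen. Umod (3146 CPM in Hes1 cKO, 2911 CPM in control) and Egf (2290 and 2172 CPM) had the highest mean levels of the list and weigh most in its sum. Of 8 distal convoluted tubule genes other than Slc12a3, 8 were lower and 0 called (median log2 fold change -0.20). Their summed level was 944 to 1200 CPM in Hes1 cKO and 1262 to 1438 CPM in control, without overlap. Taken singly, the groups overlapped for 7 of the 8. The exception was Kl, which had the highest mean level of the list (506 CPM in Hes1 cKO, 635 CPM in control). The gap between the summed levels rests on Kl, and without it the sums of the groups overlap. Kl had a log2 fold change of -0.33 and an unadjusted p of 0.0168 by edgeR. The part of these levels in the Slc12a1 and Slc12a3 values was not tested.

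Type A intercalated cells are among the kidney cells known to have NKCC1. The intercalated cell list was chosen with earlier results of these data known. All 9 of its genes had higher means in Hes1 cKO, and 8 were called, where 0.32% of all tested genes were called higher. The 8 were Foxi1, Atp6v1b1, Atp6v1g3, Slc4a9, Slc26a4, Kit, Hmx2 and Insrr. Slc4a1, the anion exchanger of type A cells, had a log2 fold change of 0.41 and was not called (edgeR adjusted p 0.718). The 9 genes summed to 1323 to 1454 CPM in Hes1 cKO and 465 to 613 CPM in control. The list covers intercalated cells as a whole, so this sum is not a level of type A cells. The groups overlapped for Slc4a1 and for Slc12a2. With 1 library left out, Atp6v1b1 was called only without control 1, Kit was not called without any 1 of the 3 Hes1 cKO libraries, and Slc26a4 was not called without Hes1 cKO 2 (edgeR adjusted p 0.0693). In the macula densa, where Slc12a1 is also found, 0 of 3 genes were called, and their summed level was 29.5 to 37.1 CPM in Hes1 cKO and 18.9 to 28.7 CPM in control. That gap lay in 1 gene, the vasopressin receptor gene Avpr1a (25.6 against 15.8 CPM, log2 fold change 0.70, edgeR adjusted p 0.219), while the groups overlapped for Nos1 (log2 fold change 0.096) and Ptgs2 (-0.052). The cells that Avpr1a came from were not measured, so this gap is not a level of macula densa cells. Of 7 tested principal cell genes 1 was called, where 0.339% of all tested genes were. It was Hsd11b2, the enzyme that inactivates glucocorticoids in aldosterone target cells (log2 fold change -1.12, edgeR adjusted p 0.0104). Of the 7, 6 were lower (median log2 fold change of the 7 -0.53). An unadjusted p under 0.05 by edgeR was found for 5 of these 6, where 2.61% of all tested genes were lower at that threshold. The principal cell genes summed to 712 to 1130 CPM in Hes1 cKO and 1168 to 1793 CPM in control, without overlap. Hsd11b2 and the macula densa genes were named after their values were seen. The 6 proximal tubule genes were all lower with 0 called, and summed to 6918 to 7724 CPM in Hes1 cKO and 7741 to 9928 CPM in control. Taken singly, the groups overlapped for each of the 6. Whether these cell types had a part in the values of the 9 pathway genes was not tested. Genes of the adrenal cortex summed to 1072, 799 and 207 CPM in Hes1 cKO 3, control 1 and control 2 and to 2.67 to 51.2 CPM in the other 4 libraries. With their level as a covariate, 0 of the 9 pathway genes were called (edgeR adjusted p 0.964 to 0.997). For the 8 lists of cell types other than the intercalated and principal cells, 0 genes were called by edgeR.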

How the data were processed

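RNA of whole kidneys was sequenced as 150 bp pairs, per the labels' protocols. The authors deposited raw read counts per gene, whole numbers with no normalization, in 2 tables. The submitters' processing notes name FastQC, STAR, DESeq2 and the build mm10 (GRCm38) without roles or versions. The sources used here name no counting program, strand setting or annotation. The 9 columns of the other table carry codes that name no genotype and were not used.

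Genes were kept by filterByExpr of edgeR 4.0.16 (R 4.3.3, minimum count 10), which left 15615 of 28971, and libraries were scaled by TMM. The 2 groups entered edgeR's quasi-likelihood test without covariates. Benjamini-Hochberg adjustment ran over all tested genes, with calls under 0.05. Standard errors were derived from the F statistic and 95% intervals from its degrees of freedom. Levels are CPM, given as mean ± SD. Permutation tests were exact and two-sided over the 35 ways to choose 3 of 7 libraries, on log2(CPM + 1). Lengths and coordinates came from GENCODE M21 (GRCm38), and promoters from RefSeq.

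Alternatives were DESeq2 1.42.0, limma-voom 3.58.1, 2 other scalings, 2 other low-count filters, covariates for Xist and for adrenal genes, and leaving out each library. The genes and lists were chosen with earlier results of these data known. Named genes are Hes1, the 9 genes of the group, list members that were called or had an unadjusted p under 0.05, the most abundant gene of each pathway list, and the 3 genes with the closest pattern to each cotransporter. Macula densa, principal cell, proximal tubule, endothelium, stroma and immune lists entered as counts. Precision is limited by the 3 and 4 libraries rather than by depth, since each of the 9 genes had at least 967 counts in every library.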

Additional observations from a re-analysis of the deposited data

Results flagged for a closer look

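In 33 sets of 4 control values, 3 had a library far from the other 3 (Dixon's ratio of gap to range above 0.829); chance alone gives about 1 in 20. Wnk1 was at 576 CPM in control 3 against 471, 474 and 479 CPM in the other controls, so that the gap took 0.919 of the range. Without control 3 its log2 fold change was -0.082 in place of -0.16. Atp6v1b1 and Atp6v1g3 of the intercalated cell list were lowest in control 1, with ratios of 0.959 and 0.832. The rule needs 4 libraries, so it was not applied to Hes1 cKO.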

How the results depend on the processing

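None of the 9 genes was called in any of the 15 alternatives (adjusted p 0.796 to 0.9997), and 130 of the 135 fits kept the direction. The other 5 each left out 1 library. With 1 library left out, log2 fold changes spanned -0.0099 to 0.17 for Wnk4, -0.057 to 0.14 for Stk39, -0.00049 to 0.058 for Oxsr1, -0.20 to 0.028 for Klhl3 and -0.16 to 0.0017 for Cul3, and so took both signs. Those of Slc12a1 (-0.19 to -0.052), Slc12a3 (-0.23 to -0.084), Wnk1 (-0.18 to -0.082) and Slc12a2 (0.014 to 0.17) kept 1 sign. Between 4 and 6 of the 9 were lower. Hes1 stayed called (-1.72 to -1.51). Log2 ratio differences spanned -0.10 to 0.037 for Slc12a3 to Slc12a1, -0.059 to 0.13 for Stk39 to Oxsr1, -0.094 to 0.13 for Klhl3 to Cul3, 0.18 to 0.27 for Wnk4 to Wnk1, 0.10 to 0.29 for Slc12a2 to Slc12a1 and 0.13 to 0.36 for Slc12a2 to Slc12a3, a design that allows no p under 0.05. The count of all called genes, 53, was 130 by DESeq2's Wald test, 102 without a low-count filter and 25 to 47 with 1 library left out (25 without Hes1 cKO 2, 27 without Hes1 cKO 1). Of the other pathway genes, DESeq2 called 1. Per kb of longest transcript, control levels were 380 (Slc12a1), 169 (Slc12a3), 44.1 (Wnk1), 19.9 (Stk39), 15.4 (Oxsr1) and 10.6 (Slc12a2) CPM per kb. No paired analysis was possible because the columns carry no replicate numbers that the labels tie to samples.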
